A study of Mus musculus with 6 samples.

Results

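The genes described here are *Osmr*, *Il6st*, *Lifr*, *Il6ra*, *Jak1*, *Stat3*, *Socs3* and *Bcl3*, which encode receptor chains of the oncostatin M and interleukin-6 family, a kinase, a transcription factor and regulators of the same signaling route. They were taken by gene symbol from a gene count table of 56748 genes, in which each of the 8 symbols occurred once, and all 8 passed the filter on low counts. The list was chosen by name with the difference between the groups already known for *Osmr*, whose counts in both groups were the measured values that selected it, so differences of the 8 genes between groups are given as a description, with no test.

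The data are RNA-Seq counts from endothelial cells (ECs) sorted by flow cytometry from the spinal cord of mice at postnatal day 16 (P16), with 3 control and 3 TDP-43iΔEC libraries. Control mice carried the floxed *Tardbp* gene without Cre (Tardbpflox). TDP-43iΔEC mice carried the same allele and Cdh5(PAC)-CreERT2, a tamoxifen-activated Cre recombinase driven by the promoter of the EC gene *Cdh5*, so that TDP-43, a DNA/RNA-binding protein, is deleted in ECs. Both groups received tamoxifen (1 mg/mL) from P5 to P7, so the control mice lack the Cre but not the drug. Neither the labels nor the methods say how many mice gave each library, so the p-values measure only the spread between these samples. Because each library came from a population of cells, fewer cells that express a gene and less RNA per cell cannot be told apart.

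Members of the interleukin-6 cytokine family signal through gp130, the shared chain encoded by *Il6st*. Oncostatin M binds a complex of OSMR and gp130, leukemia inhibitory factor binds LIFR and gp130, and interleukin-6 binds the receptor encoded by *Il6ra* before it engages gp130. The assembled receptors activate JAK kinases such as JAK1, which phosphorylate STAT3. STAT3 then enters the nucleus and induces its own inhibitor *Socs3*, among other genes. ECs are known as cells that respond to oncostatin M.

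The libraries held 25704871 to 47270654 counts, so that a count of 3, taken as the limit that a count of 0 allows, equalled 0.0635 to 0.117 CPM (counts scaled to the total of the library). *Tardbp*, the targeted gene, had 1973, 2282 and 2069 normalized counts (counts divided by the size factor of the library) in controls 1, 2 and 3, and 982, 600 and 433 in TDP-43iΔEC libraries 1, 2 and 3. The groups did not overlap, and the log2 fold change of -1.62 (SE 0.41) did not pass the adjusted threshold of 0.05 in the limma fit (adjusted p = 0.287), while DESeq2 gave -1.65 with an adjusted p of 0.00197. Control 2 and TDP-43iΔEC 1 stood apart from the other libraries in a multidimensional scaling plot, control 2 on the first dimension (30.3% of the variance) and TDP-43iΔEC 1 on the second (24.8%). Across all genes, 18 of 13107 tested genes passed limma's adjusted threshold (0.137%), DESeq2 called 461 (3.15%) and edgeR called 0, with 848 genes (6.47%) at an unadjusted p under 0.05 in edgeR.

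*Osmr*, which encodes a signaling chain of the oncostatin M receptor, was the most abundant of the 8 genes. It was lower in every TDP-43iΔEC library than in every control library. The normalized counts were 13930, 12432 and 15239 in controls 1, 2 and 3, and 6734, 5456 and 5803 in TDP-43iΔEC libraries 1, 2 and 3. Control 3 was the highest and control 2 the lowest control library, and the gap from control 2 down to TDP-43iΔEC 1 was wider than the range within either group. Since these counts selected *Osmr*, nothing is read from this gap. The mean was 13867 ± 1405 (SD, n = 3) in control and 5997 ± 661 (SD, n = 3) in TDP-43iΔEC ECs, a log2 fold change of -1.23 (SE 0.19), or 2.35-fold lower. Groups that did not overlap were found for 15.0% of all tested genes, in the lower direction for 7.10%.

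*Osmr* lies on the minus strand of chromosome 15 (GRCm39, 6843053 to 6904450), and no exon of another annotated gene overlaps its exons. The 250 bases before the start that the RefSeq promoter table gives for it, which lies inside the annotated span of the gene, are shown because *Osmr* carries the clearest separation between the groups. The table was built on GRCm38.p6, and the sequence was found unchanged in GRCm39. It holds no TTCNNNGAA, the palindrome to which STAT proteins bind.
Osmr promoter, chr15:6903795-6904044 (GRCm39, minus strand): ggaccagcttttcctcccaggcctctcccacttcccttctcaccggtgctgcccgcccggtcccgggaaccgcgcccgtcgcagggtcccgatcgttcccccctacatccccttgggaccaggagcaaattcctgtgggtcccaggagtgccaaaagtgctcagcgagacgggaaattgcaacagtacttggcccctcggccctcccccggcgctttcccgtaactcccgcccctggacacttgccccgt

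Because the deposited counts do not correct for gene length, levels of different genes were compared as TPM (counts corrected for gene length and scaled to 1 total per library), calculated here from the union of the annotated exons. In control ECs, *Osmr* had a TPM of 93.6 ± 14.2 (SD, n = 3), with 77.4 in the lowest library and 104 in the highest, and its mean level stood at the 92.0 percentile of the tested genes. *Stat3* (29.8 ± 8.01) and *Jak1* (29.4 ± 9.05) followed with overlapping ranges. Both lay below every control value of *Osmr*. *Il6st* (14.7 ± 2.13), *Socs3* (13.4 ± 5.24), *Lifr* (7.71 ± 2.75) and *Il6ra* (4.65 ± 2.48) came next, each overlapping with the one before it among these 4 genes, and *Bcl3* (1.07 ± 1.48) was the lowest. Neighboring genes had ranges that did not overlap at 3 places, between *Osmr* and *Stat3*, between *Jak1* and *Il6st*, and between *Il6ra* and *Bcl3*. When the longest transcript was used as the gene length, *Osmr* stayed first at a TPM of 167, *Jak1* (40.8) stood above *Stat3* (36.8), and the ranges of *Il6ra* (2.38 to 5.97) and *Bcl3* (0 to 3.58) overlapped. With exon lengths these 2 ranges were separated by little, with *Il6ra* at 2.89 or more and *Bcl3* at 2.76 or less.

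In TDP-43iΔEC ECs, the order of these TPM levels was more compressed at the top. *Osmr* was still first with a TPM of 45.7 ± 6.99 (SD, n = 3; 39.1 to 53.0), followed by *Stat3* at 35.9 ± 1.26 (34.5 to 37.0), so that the ranges did not overlap but lay close together. *Socs3* (31.3 ± 6.86) overlapped with *Jak1* (31.9 ± 4.49), and *Il6ra* (1.08) stood last, below *Bcl3* (1.83).

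**Figure D1:**
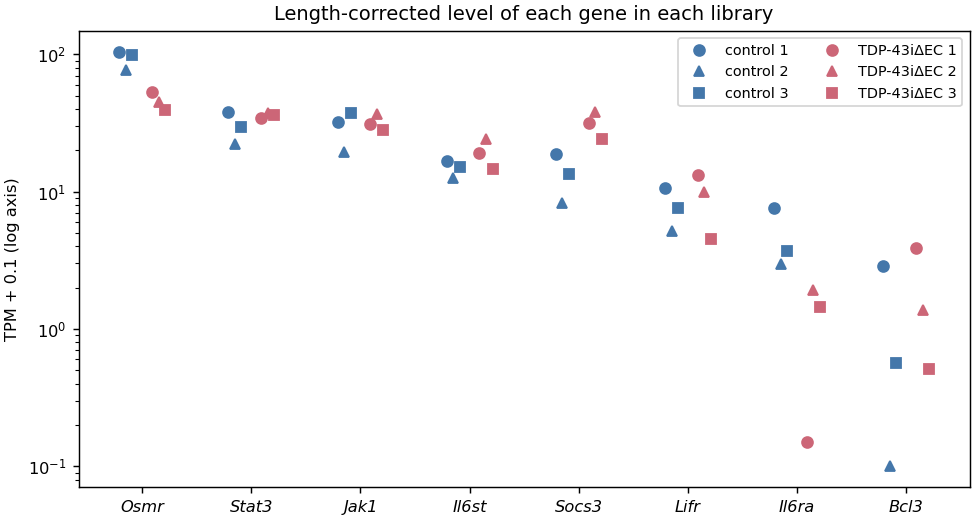
Length-corrected level of each of the 8 genes in each library, with TPM plus 0.1 on a log axis, control libraries in blue and TDP-43iΔEC libraries in red, and 1 symbol shape for each replicate number. *Osmr* is the highest gene in both groups, with a mean TPM of 93.6 in control and 45.7 in TDP-43iΔEC ECs.

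*Il6st*, which encodes the gp130 chain that OSMR needs for signaling, was measured at 2800.1, 2504 and 2865 normalized counts in controls 1, 2 and 3, and at 3006, 3641 and 2703 in TDP-43iΔEC libraries 1, 2 and 3. The groups overlapped, with 1 TDP-43iΔEC library below the highest control library. The log2 fold change was 0.15 (SE 0.24), and the means were 2723 ± 192 and 3117 ± 478 (SD, n = 3).

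*Lifr*, the receptor chain for leukemia inhibitory factor, varied more between libraries of the same group than between the groups. It had 1573, 903 and 1284 normalized counts in controls 1, 2 and 3, and 1860 (TDP-43iΔEC 1), 1332 (TDP-43iΔEC 2) and 729 (TDP-43iΔEC 3) in the others. The highest and the lowest library of all 6 were both TDP-43iΔEC libraries. The log2 fold change of 0.07 (SE 0.43) became -0.32 without TDP-43iΔEC 1 and -0.18 without control 2.

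*Osmr* and *Lifr* (7120095 to 7226970, plus strand) are adjacent on mouse chromosome 15, with no protein-coding gene between them. The gap between the annotated spans of *Osmr* and *Lifr* is 215.6 kb (215644 bases). They encode related receptor chains and are transcribed in opposite directions, away from each other. *Rictor*, the protein-coding gene on the other side of *Osmr*, encodes a subunit of the mTOR complex 2 and had a log2 fold change of 0.22 (SE 0.45; limma adjusted p = 0.892). *Egflam*, a matrix protein gene on the far side of *Lifr*, had -0.13 (SE 0.49; adjusted p = 0.954).

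*Il6ra*, which encodes the interleukin-6-binding chain, was low in all libraries and lowest in the TDP-43iΔEC group. The normalized counts were 717, 332 and 392 in controls 1, 2 and 3, and 4.55, 159 and 143 in TDP-43iΔEC libraries 1, 2 and 3. Every TDP-43iΔEC library was below every control library, and TDP-43iΔEC 1 was far below the other 2 with 6 raw counts. The fitted log2 fold change was -3.54 (SE 1.58) in limma, -2.28 in edgeR and -1.63 in limma without TDP-43iΔEC 1. *Atp8b2*, a phospholipid flippase gene next to *Il6ra*, also had groups that did not overlap, with 562, 883 and 695 normalized counts in the control group against 473, 224 and 348 in the TDP-43iΔEC group. Its log2 fold change of -0.99 (SE 0.60) did not pass the threshold (limma adjusted p = 0.613). *She*, the neighbor on the other side, had a log2 fold change of -0.30 (SE 0.53; adjusted p = 0.874) with overlapping groups.

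Ratios within a library do not depend on how the libraries are scaled to each other. The ratio of *Osmr* to *Il6st* in TPM was 6.23, 6.22 and 6.66 in control libraries and 2.81, 1.88 and 2.69 in TDP-43iΔEC libraries. The control values lay within a narrow range, above all TDP-43iΔEC values. The ratio of *Osmr* to *Lifr* was 9.85, 15.3 and 13.2 in control libraries and 4.03, 4.56 and 8.85 in TDP-43iΔEC libraries, without overlap. Since *Osmr* was chosen with its difference between the groups known, nothing is read from the separation of the ratios that hold it. For *Il6ra* to *Il6st* the ratios were 0.449, 0.233 and 0.240 in control libraries and 0.00265, 0.0764 and 0.0930 in TDP-43iΔEC libraries. By contrast, the ratio of *Lifr* to *Il6st* overlapped, at 0.632, 0.406 and 0.505 against 0.696, 0.412 and 0.304.

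**Figure D2:**
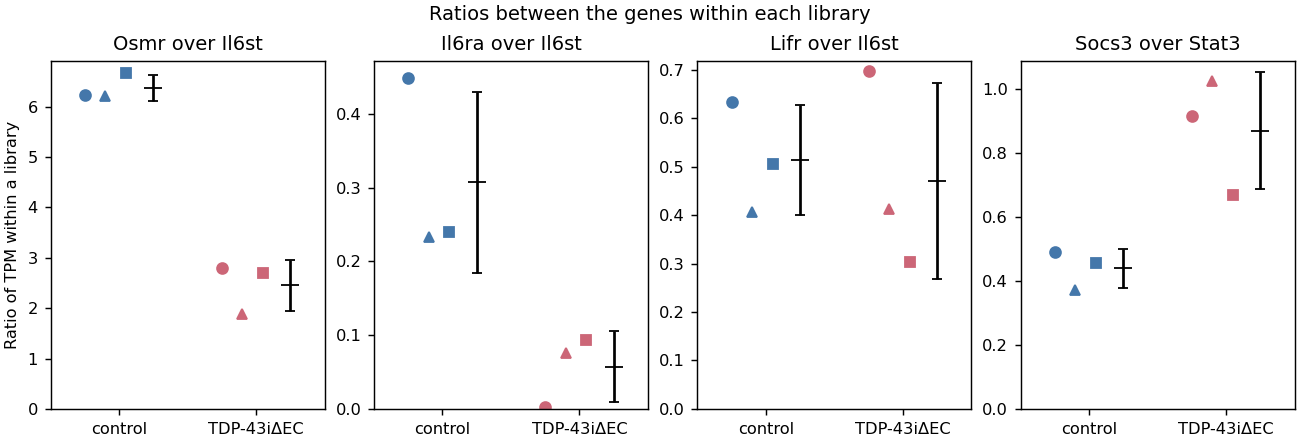
Ratio of TPM levels within each library for 4 pairs of the genes, in control (blue) and TDP-43iΔEC (red) libraries, with the mean and SD (n = 3) as black bars. *Osmr* over *Il6st* lies at 6.22 to 6.66 in control and 1.88 to 2.81 in TDP-43iΔEC libraries, and *Lifr* over *Il6st* overlaps.

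*Jak1*, a kinase bound to the cytoplasmic part of gp130, and *Stat3*, the transcription factor it activates, had groups that overlapped. *Jak1* had 3724, 2727 and 4966 normalized counts in controls 1, 2 and 3, and 3448, 3889 and 3626 in TDP-43iΔEC libraries 1, 2 and 3. *Stat3* had 4148, 2878 and 3667 in control libraries and 3571, 3643 and 4384 in TDP-43iΔEC libraries. For both genes the control libraries alone spanned a wide range, and for *Jak1* all 3 TDP-43iΔEC values fell inside it. The log2 fold changes were -0.07 (SE 0.28) for *Jak1* and 0.07 (SE 0.24) for *Stat3*, and under other scalings, tests and sample sets they went from -0.31 to 0.18 and from -0.10 to 0.31. Counts measure the amount of *Stat3* RNA and not the phosphorylation of the protein. Exons of genes on the opposite strand cover 18.0% of the *Jak1* exons (*Raver2*, an RNA-binding protein gene with at most 264 normalized counts) and 6.89% of those of *Stat3* (*Stat5a*, at most 49.3, and a long noncoding RNA), and the counting was not stated to use strand. *Cavin1*, a caveola gene on the other side of *Stat3*, had a log2 fold change of -0.35 (SE 0.24; limma adjusted p = 0.648), and *Ak4*, next to *Jak1*, had 0.58 (SE 3.56; adjusted p = 0.974).

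*Socs3*, the STAT3-induced inhibitor that binds gp130 and JAK kinases, was higher in every TDP-43iΔEC library than in every control library. It had 718, 377 and 589 normalized counts in controls 1, 2 and 3, and 1154, 1318 and 1033 in TDP-43iΔEC libraries 1, 2 and 3. Control 2 was the lowest of all libraries, and TDP-43iΔEC 2 was the highest. The mean was 561.5 ± 172 in control and 1168 ± 143 in TDP-43iΔEC ECs (SD, n = 3), a log2 fold change of 1.06 (SE 0.43), or 2.09-fold higher. The log2 fold change was 0.78 (SE 0.41) without control 2, and 0.78 to 1.29 over all alternatives. Groups that did not overlap in this direction were found for 7.93% of all tested genes. The ratio of *Socs3* to *Stat3* in TPM was 0.491, 0.372 and 0.456 in control libraries and 0.916, 1.03 and 0.668 in TDP-43iΔEC libraries. These values did not overlap, as was so for the counts of *Socs3* alone. *Pgs1*, the gene next to *Socs3* that could be tested, had a log2 fold change of 0.57 (SE 0.83; limma adjusted p = 0.841).

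*Socs3* is on the minus strand of chromosome 11 (117856905 to 117860898), and its promoter is shown because it alone among those of the 8 genes holds TTCNNNGAA (in capitals), starting 154 bases before the start that the RefSeq table gives. That start lies inside the annotated span of the gene, and so does the printed sequence. The motif reads the same on both strands, and 8.30% of all 32851 promoters of 300 bases (250 before to 50 after the start) in the RefSeq table hold it. A loose form of the NF-κB motif, read on either strand as 3 G and 2 C with 5 bases of any kind between them, was found in 7 of the 8 genes, all but *Stat3*, beside 53.5% of all 27025 genes in the table, while *Socs3* as 1 of the 8 genes with TTCNNNGAA stands beside 9.55%.
Socs3 promoter, chr11:117860193-117860442 (GRCm39, minus strand): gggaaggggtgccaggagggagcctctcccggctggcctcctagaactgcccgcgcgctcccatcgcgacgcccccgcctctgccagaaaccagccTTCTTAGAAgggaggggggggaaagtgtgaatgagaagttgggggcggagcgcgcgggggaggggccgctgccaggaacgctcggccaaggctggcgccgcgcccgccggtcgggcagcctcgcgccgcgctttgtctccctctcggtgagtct

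*Bcl3*, a nuclear IκB protein that binds NF-κB p50 and p52 and is induced by STAT3 and NF-κB, was the least abundant of the 8 genes in control ECs. It had 156, 0 and 30.0 normalized counts in controls 1, 2 and 3, and 204, 65.6 and 25.5 in TDP-43iΔEC libraries 1, 2 and 3. The groups overlapped and both spread widely, and the count of 0 in control 2 allows up to 0.0662 CPM. The fitted log2 fold change of 2.60 (SE 2.38) in limma was 0.61 in edgeR and 0.21 without control 2, so no direction is given for this gene.

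The other genes of the list lie on 5 further stretches of GRCm39. *Il6st* is on chromosome 13 (112600604 to 112646620, plus strand), *Il6ra* on chromosome 3 (89771366 to 89820719), *Jak1* on chromosome 4 (101008838 to 101122487), *Stat3* on chromosome 11 (100775924 to 100830450) and *Bcl3* on chromosome 7 (19541553 to 19557570), the last 4 on the minus strand. Besides *Jak1* and *Stat3*, exons on the opposite strand cover 11.8% of the exons of *Socs3*, 11.1% of those of *Lifr*, 5.99% of *Bcl3*, 5.17% of *Il6ra* and 1.17% of *Il6st*, all from long noncoding RNAs, and reads from both strands cannot be told apart there.

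Of the 8 genes, *Osmr*, *Il6ra* and *Socs3* had groups that did not overlap, against 15.0% of all tested genes. Since the difference between the groups helped to choose the list, nothing is read from this count. The median log2 fold change over the 8 genes was 0.07, and over all tested genes -0.02.

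The 8 genes also differed in how much libraries of the same group varied. The SD of log2 values within groups was 0.17 for *Osmr* and 0.18 for *Il6st*. These values stood at the 2.40 and 2.77 percentiles of the tested genes, whose median was 0.81. The counts of *Osmr* in both groups selected it, so nothing is read from its small spread. The SD was 0.24 for *Stat3*, 0.33 for *Jak1*, 0.37 for *Socs3*, 0.57 for *Lifr*, 2.05 for *Il6ra* and 3.25 for *Bcl3*. The percentiles were taken over genes of all levels, and in control TPM *Osmr* and *Il6st* stood at the 92.0 and 64.6 percentiles. Control 2 was the lowest control library for 8 of the 8 genes, while this was so for 48.3% of all tested genes. It also had the fewest genes with any count, 12972, beside 16557 and 16123 in controls 1 and 3. In TDP-43iΔEC libraries 1, 2 and 3 that number was 14473, 15379 and 14103.

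**Figure D3:**
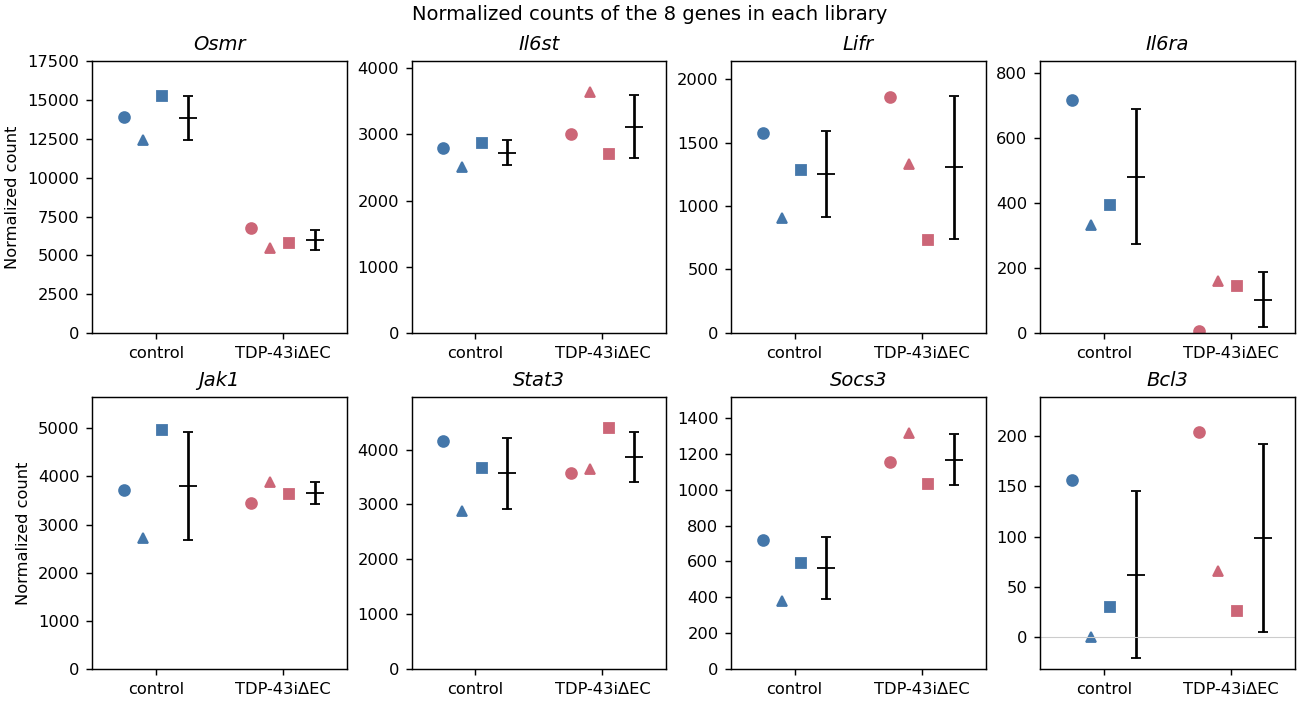
Normalized counts of the 8 genes in each control (blue) and TDP-43iΔEC (red) library, with the mean and SD (n = 3) as black bars; the circle, triangle and square are replicates 1, 2 and 3. *Osmr* and *Il6ra* are lower and *Socs3* is higher in all TDP-43iΔEC libraries, and the other 5 genes overlap between the groups.

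The scaling of the libraries moved *Osmr* and the other genes together. With scaling by library size only, the median log2 fold change of all genes moved to 0.18 and that of *Osmr* to -1.04, and with scaling to the sum of 7 EC marker genes they moved to 0.23 and -0.99. Relative to the median of all genes, *Osmr* stood at -1.22 with the TMM scaling used here and with library size only. *Il6st* stood at 0.16 to 0.17 and *Socs3* at 1.06 to 1.08 relative to that median.

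Of the other genes of the pathway, 58 were taken from a list by role, and 41 had enough counts to be tested. None passed the adjusted threshold in limma, where the lowest adjusted p was 0.513, and edgeR also called 0 of them, with 1 at an unadjusted p under 0.05. In limma, 4 of the 41 genes had an unadjusted p under 0.05, all of them higher in TDP-43iΔEC ECs (*Il11ra1*, *Ccnd1*, *Lcn2* and *Nfkb2*), against 4.26% of all tested genes in this direction and 9.27% in either. The groups did not overlap for 8 genes in the higher and 1 in the lower direction, which is 22.0% of the 41 genes, beside 7.93%, 7.10% and 15.0% of all tested genes in the higher, the lower and either direction. The median log2 fold change of the 41 genes was 0.40, beside -0.02 for all tested genes. Of the 41 values 30 were positive, beside 6461 of all 13107 tested genes. The values come from the same 6 libraries and are not independent of each other. Several genes of the list were at 0 in control 2. Without that library, the median of the 41 genes was 0.27, beside -0.17 for all tested genes, and 27 values were positive.

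The ligands of the family were at 0 in most libraries of the sorted cells. *Osm*, which encodes oncostatin M itself, was at 0 in all 6 libraries, as was *Il27*. None of the 11 ligand genes passed the filter. *Il6* had 73 raw counts in TDP-43iΔEC 3 and 0 in every other library, *Lif* had 77 in TDP-43iΔEC 2 alone and *Il11* had 38 in TDP-43iΔEC 1 alone. *Cntf*, which encodes ciliary neurotrophic factor, had 27, 796 and 0 raw counts in controls 1, 2 and 3, and 0 in the TDP-43iΔEC libraries, and *Ctf1* (cardiotrophin 1) had 123 in control 3 alone. The remaining ligand genes with counts, *Ctf2*, *Clcf1* and *Ebi3*, had at most 29. DESeq2, which tested 42 genes of the list, called *Il6* as its only one, on the counts of that single library.

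Among the other receptor chains, *Il11ra1*, which encodes the interleukin-11 receptor, had 1483, 612 and 1039 normalized counts in the control group against 2006, 1996 and 1792 in the TDP-43iΔEC group. The TDP-43iΔEC values lay close together above all control values, but the log2 fold change of 0.94 (SE 0.38) did not pass the threshold (limma adjusted p = 0.513). *Il27ra*, a chain of the interleukin-27 receptor, was at 0 in 1 library of each group, with a log2 fold change of -1.77 (SE 3.57; adjusted p = 0.891). *Il31ra*, the partner of OSMR in the receptor for interleukin-31, was at 0 in all libraries and lies next to *Il6st*, at a distance of 9.81 kb on chromosome 13.

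None of the 7 other kinase and STAT genes passed the threshold. *Jak3*, a kinase of receptors with the common gamma chain, was the 1 gene of the pathway list with groups that did not overlap in the lower direction, at 3521, 1129 and 1144 normalized counts in the control group against 544, 961 and 1087 in the TDP-43iΔEC group (log2 fold change -1.16, SE 0.60, adjusted p = 0.578). Control 1 was far above the other 2 control libraries, which lay just above the highest TDP-43iΔEC value. *Stat5a* (1.10, SE 1.94) and *Stat5b* (0.90, SE 1.08) followed by size of the log2 fold change. *Jak2*, with the highest mean control TPM of these genes (46.1), had a log2 fold change of -0.60 (SE 0.43). Its control range (38.2 to 59.3) overlapped that of *Jak3* (11.2 to 41.8).

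In the branch that links gp130 through the phosphatase SHP2 to the RAS and MAPK route, *Sos1*, a RAS activator, had a log2 fold change of 0.66 (SE 0.42), *Shc1*, an adaptor, 0.64 (SE 0.34) and *Ptpn11*, which encodes SHP2, 0.60 (SE 0.45). None of the 5 passed the threshold in limma (lowest adjusted p 0.584). *Gab1*, the adaptor that binds SHP2 and the one with the highest mean control TPM (42.8), had -0.37 (SE 0.33). Its control range (28.0 to 54.1) overlapped that of *Shc1* (24.3 to 35.5).

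Of 11 other inhibitors, 10 were tested and 0 passed the threshold. *Socs1*, another inhibitor of JAK kinases, had 70.7, 0 and 27.6 normalized counts in the control group against 412, 19.1 and 534 in the TDP-43iΔEC group. TDP-43iΔEC 2 was low and the groups overlapped, and the log2 fold change was 4.20 (SE 2.48). *Socs7* (4.08, SE 2.15) and *Cish* (3.48, SE 2.66) also had a count of 0 in control 2, and their groups overlapped. *Pias3*, which encodes a protein that binds activated STAT3, had the highest mean control TPM of these genes (27.0), with a log2 fold change of -0.50 (SE 0.59). Its control range (10.5 to 44.9) held that of *Pias1* (17.0 to 24.6).

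Of the 18 genes known as targets of STAT3, 15 were tested. None passed the threshold in limma. Of the 15 log2 fold changes 14 were positive, beside 6461 of all 13107 tested genes. The median was 0.40, beside -0.02 for all tested genes. Without control 2, 11 of the 15 were positive, with a median of 0.27, beside -0.17 for all tested genes. *Lcn2*, which encodes the secreted protein lipocalin 2, had 408, 0 and 452 normalized counts in the control group against 1140, 1020 and 1005 in the TDP-43iΔEC group. All TDP-43iΔEC values lay close together above the control values, while the fitted log2 fold change of 4.53 (SE 1.98; limma adjusted p = 0.537) was 1.82 in edgeR. *Myc*, a growth regulator, showed the same feature of a 0 in control 2, at 499, 0 and 443 in control and 672, 906 and 1300 in TDP-43iΔEC libraries (4.14, SE 2.07, adjusted p = 0.564).

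*Cebpd*, a transcription factor of the acute-phase response, came next by size with a log2 fold change of 0.78 (SE 0.62; limma adjusted p = 0.689). *Timp1* and *Ccnd1* were picked after their values were seen, because no library was at 0 and the groups did not overlap. *Timp1*, an inhibitor of matrix metalloproteinases, had 569, 627 and 789 normalized counts in the control group against 980, 1352 and 1256 in the TDP-43iΔEC group, a log2 fold change of 0.77 (SE 0.39; adjusted p = 0.569). *Ccnd1*, which encodes cyclin D1, had 8202, 7283 and 7189 in control and 9391, 12510 and 10249 in TDP-43iΔEC libraries, a log2 fold change of 0.44 (SE 0.18; adjusted p = 0.513). *Fos*, an immediate early gene and the most abundant target with a control TPM of 903, had a log2 fold change of 0.27 (SE 0.25).

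The partners of BCL3 are the NF-κB genes *Nfkb1* and *Nfkb2*. *Nfkb2* had 542, 0 and 154 normalized counts in the control group against 914, 779 and 820 in the TDP-43iΔEC group. All TDP-43iΔEC values were above the control values, and the fitted log2 fold change of 4.60 (SE 1.97; limma adjusted p = 0.528) was 1.80 in edgeR. *Nfkb1* had a log2 fold change of 0.40 (SE 0.40; adjusted p = 0.760).

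**Figure D4:**
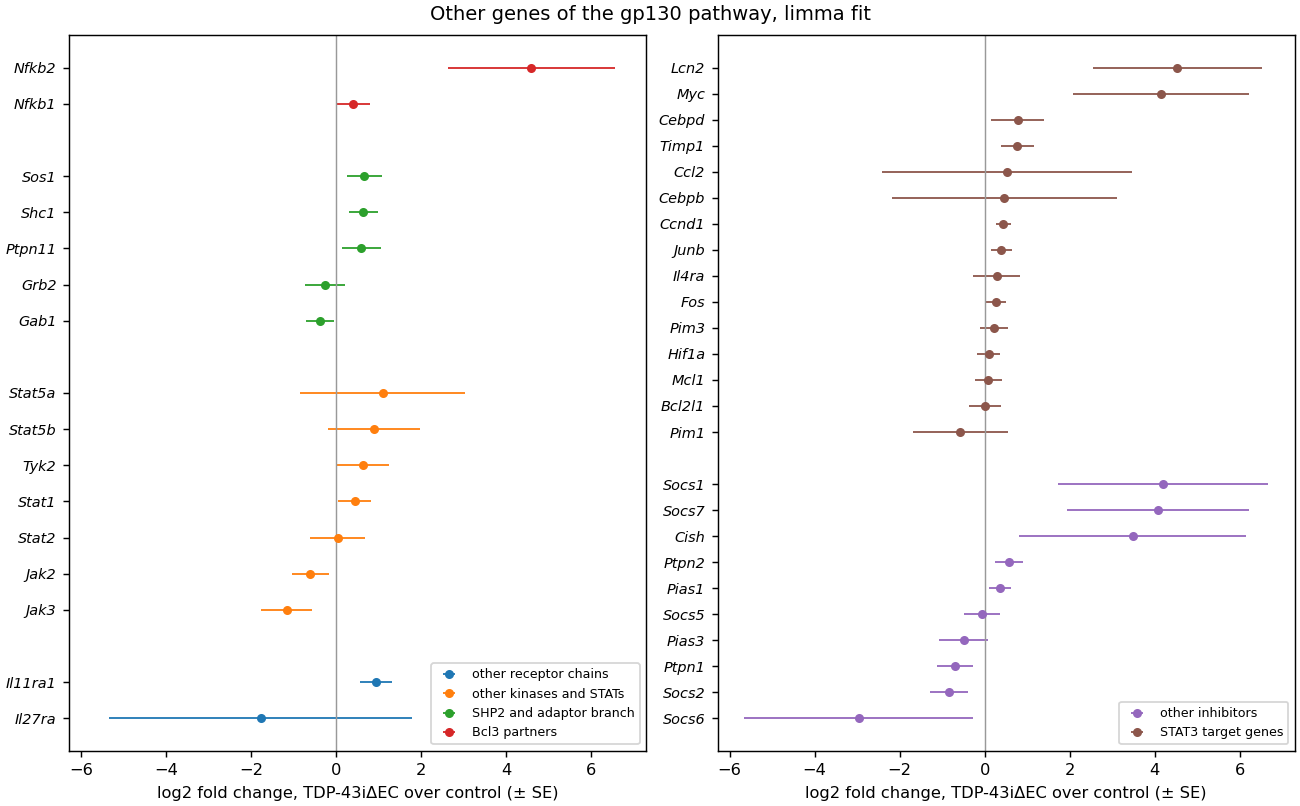
Log2 fold change (TDP-43iΔEC over control) with its SE for the 41 tested genes of the pathway list, colored by role. Of the values 30 are positive, beside 6461 of all 13107 tested genes. None of the 41 passes the adjusted threshold, and the points near 4 (*Nfkb2*, *Lcn2*, *Socs1*, *Myc*, *Socs7*, *Cish*) belong to genes at 0 in control 2.

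Among 7376 tested genes with a mean normalized count of at least 500, those with the pattern most like that of *Osmr* over the 6 libraries were *Gstm7*, *Idnk*, *Irf2*, *Nipa2* and *Zc3h7b*. Likeness was the root mean square difference of log2 CPM, centered on the mean of each gene, and it was 0.12 for *Gstm7*, 0.16 for *Idnk*, *Irf2*, *Nipa2* and *Zc3h7b*. *Gstm7*, a glutathione S-transferase gene, had 18026, 15814 and 19433 normalized counts in the control group against 7324, 6052 and 6272 in the TDP-43iΔEC group. *Irf2*, an interferon regulatory factor gene, had 1566, 1615 and 1599.5 in control and 684, 587 and 522 in TDP-43iΔEC libraries. These genes were ranked by their likeness to *Osmr*, so that their difference between the groups follows from the ranking. The same 5 genes came first when the libraries were scaled by size only.

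**Figure D5:**
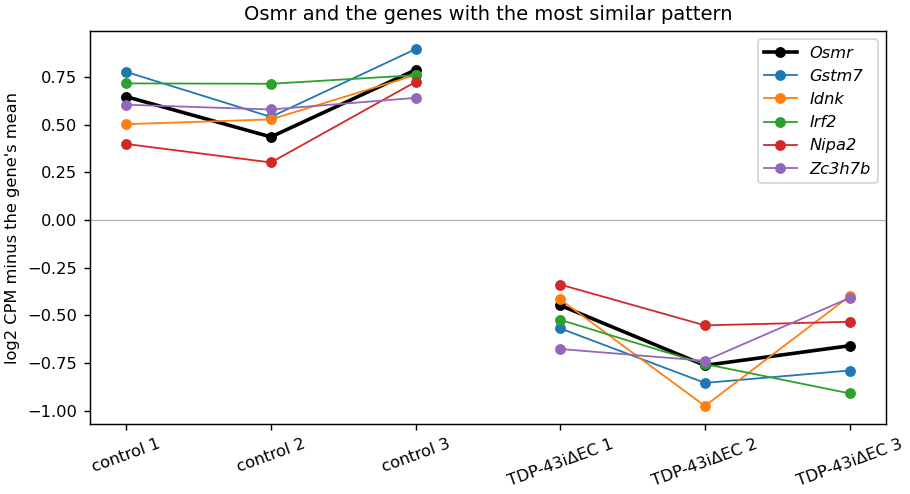
Log2 CPM minus the mean of each gene in the 6 libraries, for *Osmr* (black) and the 5 genes with the most similar pattern. All lie above 0 in the control and below 0 in the TDP-43iΔEC libraries, and *Gstm7* lies closest to *Osmr*.

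Marker genes of other cell types were compared with the levels of the 8 genes. The summed level of 7 EC markers was 9586 to 13410 CPM in control and 9579 to 12050 CPM in TDP-43iΔEC libraries, and 0 of the 7 passed the threshold in limma. *Cldn5*, a tight junction gene, made up most of this sum. *Flt1*, *Kdr* and *Tek*, which encode receptors for VEGF and angiopoietins, were lower in every TDP-43iΔEC library than in every control library, as *Osmr* was. *Flt1* had 72590, 65395 and 66007 normalized counts in controls 1, 2 and 3, and 44973, 43635 and 40657 in TDP-43iΔEC libraries 1, 2 and 3. Its log2 fold change was -0.69 (SE 0.11; limma adjusted p = 0.0635, DESeq2 adjusted p = 1.4e-07), beside -0.26 (SE 0.13; limma adjusted p = 0.575) for *Kdr* and -0.35 (SE 0.14; limma adjusted p = 0.513) for *Tek*. The groups overlapped for the other 4 EC markers. *Osmr* was at 308 to 397 CPM in control and 159 to 197 CPM in TDP-43iΔEC libraries. The summed level of 5 red blood cell genes was 6336 to 9759 CPM in control and 2197 to 2909 CPM in TDP-43iΔEC libraries, and 4 of the 5 passed the threshold. It moved with *Osmr*. With hemoglobin, mitochondrial and ribosomal RNA genes left out before scaling, the log2 fold change of *Osmr* was -1.20. Leaving these genes out changes the scaling only, and the part of red blood cells in the difference of *Osmr* was not tested. The share of counts taken by the ribosomal RNA gene *Rn18s* was 14.8%, 14.8% and 18.5% in controls 1, 2 and 3, and 8.04%, 8.18% and 13.6% in TDP-43iΔEC libraries 1, 2 and 3, so that it was also lower in every TDP-43iΔEC library.

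The summed levels of 6 mural cell genes (479 to 883 CPM in control, 422 to 1074 CPM in TDP-43iΔEC libraries) and of 5 fibroblast genes (35.4 to 40.8 and 12.8 to 43.9 CPM) overlapped between the groups, and *Pdgfra* and *Lum* were at 0 in every TDP-43iΔEC library. The 4 oligodendrocyte genes summed to 288 to 545 CPM in control and 14.9 to 497.5 CPM in TDP-43iΔEC libraries. *Olig1*, a transcription factor gene of that lineage, had 152, 277 and 178 normalized counts in controls 1, 2 and 3, and 0, 5.96 and 0 in TDP-43iΔEC libraries 1, 2 and 3, and its groups did not overlap (limma adjusted p = 0.287, DESeq2 adjusted p = 0.00237). Of the neuronal markers, *Snap25* was lower in every TDP-43iΔEC library (10.8, 26.7 and 230.5 against 0 in all, limma adjusted p = 0.471, DESeq2 adjusted p = 0.0216). *Rbfox3* was higher in every TDP-43iΔEC library, at 1.66, 0 and 0 normalized counts in control against 31.8, 19.1 and 71.0. It passed the threshold in neither limma (adjusted p = 0.487) nor DESeq2 (adjusted p = 0.0937). Markers of astrocytes (4 genes, with *Aqp4* at 0 in the TDP-43iΔEC libraries), neurons (4 genes, with *Map2* and *Snap25* at 0 there), microglia and macrophages (7 genes, with *Tmem119* at 0 there and *Adgre1* at 0 everywhere) and other leukocytes (5 genes, with *Cd3e* at 0 there and *S100a8* and *S100a9* at 0 everywhere) summed to at most 27.7, 9.40, 8.44 and 0.727 CPM in any library. The antibodies listed for flow cytometry were against CD31, a surface protein of ECs, and against CD45 and TER-119, which mark leukocytes and red blood cells, and the gates are not given in the sources used here. The *Osmr* level in TPM and CPM was measured over all sorted cells, and the part of any of these cell types, or of the *Rn18s* share, in the difference of *Osmr*, *Il6ra* or *Socs3* was not tested.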

How the data were processed

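The authors sorted ECs from spinal cords of control and TDP-43iΔEC mice and prepared 6 SMARTseq2 libraries, with RNA input and cDNA amplification cycles that varied by sample and are not given per library. Replicates are labelled as separate samples, without saying that each is 1 mouse, and no molecular identifiers were used, so count floors cover counting error only. According to the study's methods, the authors mapped reads with STAR (2.7.8a) to GRCm39 and quantified them with RSEM (1.3.0, default options). The values deposited by the authors are estimated counts per gene from RSEM, given as whole numbers and not scaled. Groups came from the genotype labels.

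Genes were filtered with filterByExpr (13107 kept), scaled by TMM and tested with limma-voom (limma 3.58.1, edgeR 4.0.16, R 4.3.3), with Benjamini-Hochberg adjustment over all tested genes and a threshold of 0.05. Normalized counts are counts divided by DESeq2 (1.42.0) size factors. An exact permutation test of 3 against 3 cannot go below p = 0.1 and was not used. TPM and exon overlaps used gene models of a later GENCODE release than the one the study's methods name for the counts. Exon lengths were matched by identifier for 56017 of 56748 genes. Promoters came from RefSeq. The scripts were tested on simulated data.

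The members and lists were chosen with earlier results of these data known. Named genes were the 8 genes, *Tardbp*, pathway genes past the threshold, the 3 tested genes with the largest change and the most abundant gene of each role, the 5 genes most like *Osmr*, and neighboring or overlapping genes. Of the neighboring and overlapping genes, those with too few counts to test and without a value above are not described. The alternatives were edgeR's quasi-likelihood test, DESeq2, other scalings and filters, sample weights, a replicate block, each library left out, and, chosen after seeing the data, control 2 and TDP-43iΔEC 1 left out together. A comparison of the receptor proteins was planned and not made, since no protein sequences were used here.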

Additional observations from a re-analysis of the deposited data

How the results depend on the processing

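The count of genes past the threshold, 18, was 0 with edgeR, 461 with DESeq2, 10 with scaling by library size only, 1 with scaling to the EC marker genes, 76 with no filter, 39 with at least 10 counts in every library, 31 at an adjusted p under 0.1, and 0 without control 2 and TDP-43iΔEC 1 (chosen after seeing the data). Leaving out 1 library gave 0 to 13, with 3 without control 1, 10 without control 2, and 0, 3 and 2 without TDP-43iΔEC 1, 2 and 3. At an unadjusted p under 0.05 limma called 960 genes without TDP-43iΔEC 1 and 1026 without both libraries. The pathway list had 0 genes past the threshold, and 1 with DESeq2. *Tardbp* stayed negative in all 17 alternatives (adjusted p 0.00197 to 0.564) and passed the threshold with DESeq2 alone, at a log2 fold change of -1.65. *Osmr*, at -1.23, was -1.04 with library size only, -0.99 with the EC markers and -1.44 without both libraries, and leaving out 1 library gave -1.34 to -1.15. *Osmr* and *Il6ra* were negative and *Socs3* and *Il6st* positive under every alternative run. *Lifr* (-0.56 to 0.38), *Jak1* (-0.31 to 0.18), *Stat3* (-0.10 to 0.31) and *Bcl3* (-0.74 to 4.42) changed sign. *Il6ra* and *Bcl3* have no value with at least 10 counts in every library. Same-numbered libraries did not deviate together (correlations -0.06, -0.13 and -0.03). With 3 libraries per group, this cannot show whether the numbers pair the samples. With the replicate block, 22 genes passed the threshold, 0 of them in the pathway list, *Tardbp* was -1.54 and *Osmr* was -1.23. The causes of these changes were not tested. A count of 0 allows up to 0.117 CPM in the shallowest library.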
